A study of Mus musculus with 12 samples.

Results

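The comparison described here set palatal shelves of embryos exposed to AzadC against palatal shelves of embryos given its vehicle. Its members are the 3 libraries labelled as AzadC treated and the 3 labelled as their vehicle control, 6 of the 12 RNA-seq libraries of the series, and all genes of the deposited count tables were examined. AzadC is 5-aza-2'-deoxycytidine, also called decitabine. Both groups were wild type mouse embryos at gestational day 12. The other 6 libraries, used here for the shared estimate of spread and as a second reference, were 3 from untreated wild type embryos (control) and 3 from untreated embryos with a conditional knockout of Dnmt1 (knockout). By the labels, tissue of 2 embryos sharing a genotype was pooled for each library, which makes 6 embryos a group; the series' design text instead gives 3 animals per pool. Several litters contributed to each group without being tied to single libraries. How much AzadC was given, by which route and when, is not stated in the labels, nor is the Cre driver of the knockout. The p-values therefore measure the spread between pools of embryos, some of which may share a litter.

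The palatal shelves grow out from either side of the upper jaw and fuse into the roof of the mouth. They consist mostly of mesenchyme descended from the cranial neural crest, covered by epithelium, with blood vessels and resident macrophages among it. AzadC is phosphorylated in the cell and built into DNA in place of cytosine, where DNA methyltransferases become trapped on it, so that methylation is lost as cells divide. In cultured cells it is known for turning on germline genes that promoter methylation keeps silent, and for raising interferon-stimulated genes through double-stranded RNA from transposable elements.

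The smallest of the 6 libraries, AzadC 1, held 12640536 expected counts and the largest, vehicle 2, 31356496. The level of a gene is its CPM, the deposited count after scaling for library size, and a change is log2 of AzadC over vehicle. Regulators of palatal mesenchyme were present in all 6 libraries: Pdgfra, a growth factor receptor of mesenchyme, stood at 598 to 689 CPM, and Prrx1 at 293 to 394 CPM. Shox2, a mesenchymal factor of the anterior palate, had only 3.15 CPM in AzadC 2 against 8.51 to 12.9 CPM in the other five. Msx1, another anterior factor, had 0.485 CPM in AzadC 2 and 1.61 to 6.78 CPM in the others. Skeletal muscle genes varied between libraries of one group: their summed level was 1050 CPM in vehicle 2 and 330 to 606 CPM in the other five. The summed level of 4 Y-linked genes was 244, 132 and 143 CPM in the AzadC libraries and 128, 78.5 and 112 CPM in the vehicle libraries (exact two-sided permutation p = 0.1, the smallest possible with 3 against 3). Their part in the results was not tested beyond a fit with that level as a covariate.

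Very few genes separated the groups by the test across all genes. Of 17335 genes tested, 2 passed (0.0115%): Meioc fell and Cav1 rose (edgeR quasi-likelihood test, Benjamini-Hochberg adjusted p below 0.05). The same 2 genes passed in limma-voom. DESeq2 called more, 76 genes higher (0.438%) and 6 lower (0.0346%), and both edgeR calls were among them. At an unadjusted p below 0.05 edgeR had 674 genes higher (3.89%) and 431 lower (2.49%). All 3 AzadC libraries lay above all 3 vehicle libraries in 1057 genes (6.10%) and below them in 998 (5.76%). The median log2 change over all genes tested was -0.003, with quartiles of -0.11 and 0.11.

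Meioc encodes a coiled-coil protein that germ cells need to carry on with meiosis. The AzadC libraries had 1.26, 1.33 and 1.8 CPM and the vehicle libraries 18.7, 27.8 and 25.2 CPM. The untreated control libraries had 0.865, 1.19 and 0.799 CPM and the knockout libraries 4.7, 7.53 and 5.21 CPM. The 3 vehicle libraries thus stood far above the other nine, and the AzadC libraries lay just above the untreated wild type. The log2 change of AzadC against vehicle was -3.99 (SE 0.25, 95% interval -4.53 to -3.45, edgeR adjusted p = 1.05e-05), and its sign is set by the level in the vehicle group. Meioc passed in every alternative fit listed in the closing section and without any single library, with log2 changes of -4.19 to -3.87. In the knockout Meioc was above its own control, and the AzadC effect minus the knockout effect was -6.59 (SE 0.36, edgeR adjusted p = 3.85e-07).

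The gene lies on chromosome 11 at 102663716 to 102682237 on the plus strand in GENCODE M21. Its neighbours did not pass. Fzd2, a Wnt receptor gene upstream, had a log2 change of -0.10 (edgeR adjusted p = 0.923), and Ccdc43, which lies just downstream on the other strand, 0.03 (edgeR adjusted p = 0.986). Of the other genes tested within 200 kb none passed. The RefSeq promoter window of Meioc is printed below beside that of Cav1, as the pair of genes that passed, with 250 bases before the start site, build GRCm38.p6, 5′ to 3′ along the gene and CpG dinucleotides in capitals. The RefSeq start of Meioc lies inside the longer GENCODE gene model.
Meioc, chr11:102665335-102665584, plus strand: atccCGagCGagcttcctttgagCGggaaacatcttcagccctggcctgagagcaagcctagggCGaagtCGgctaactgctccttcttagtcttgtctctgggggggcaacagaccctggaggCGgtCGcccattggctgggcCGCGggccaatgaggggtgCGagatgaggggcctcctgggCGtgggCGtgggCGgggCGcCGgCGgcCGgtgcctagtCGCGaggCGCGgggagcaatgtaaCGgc
Cav1, chr6:17306085-17306334, plus strand: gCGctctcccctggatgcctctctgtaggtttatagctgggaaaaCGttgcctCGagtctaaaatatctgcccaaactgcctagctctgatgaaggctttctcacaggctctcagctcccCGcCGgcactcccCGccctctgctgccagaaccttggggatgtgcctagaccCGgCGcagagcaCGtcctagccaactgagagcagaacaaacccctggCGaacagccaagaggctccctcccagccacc
The Meioc window holds 22 CpGs and the Cav1 window 10, where the median over the tested genes with a window was 15 (quartiles 8 and 22). No methylation was measured in this series, so that these are properties of the sequence.

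**Figure D1:**
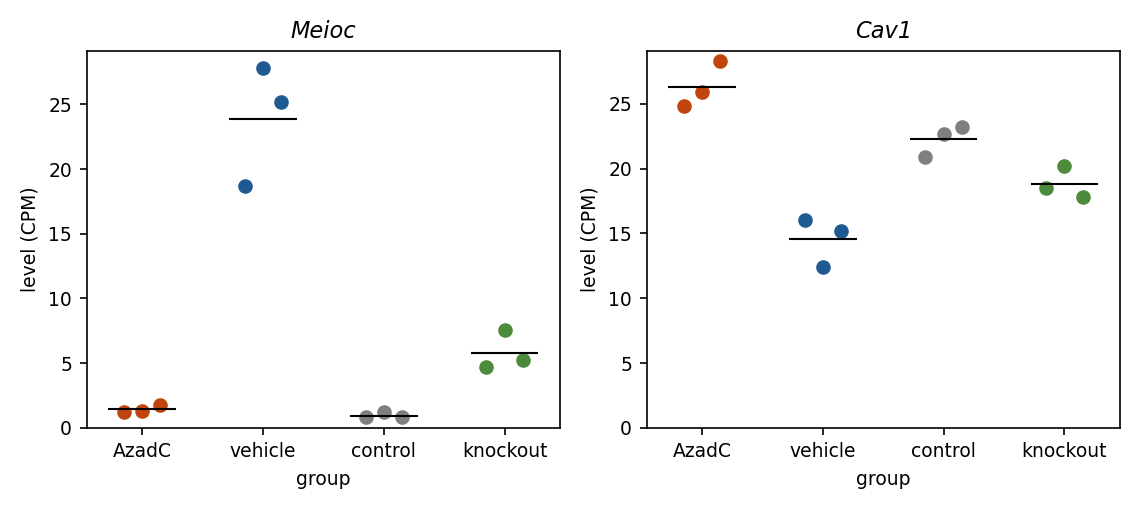
Level in CPM (y axes, from 0) of Meioc and Cav1 in each of the 3 libraries (points) of the 4 groups (x axes), with the group mean as a bar. The vehicle libraries hold 18.7 to 27.8 CPM of Meioc and all other libraries 0.799 to 7.53, and the vehicle libraries have the lowest 3 values of Cav1, 12.4 to 16.

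Cav1 encodes caveolin-1, the main coat protein of the plasma membrane pits called caveolae. It stood at 24.8, 25.9 and 28.3 CPM with AzadC and at 16, 12.4 and 15.2 CPM with vehicle, without overlap. The control libraries had 20.9, 22.7 and 23.2 CPM and the knockout libraries 18.5, 20.2 and 17.8 CPM, between the AzadC and vehicle groups. The log2 change was 0.86 (SE 0.11, 95% interval 0.63 to 1.10, edgeR adjusted p = 0.0232). The call is close to the threshold: it was lost in fits of the AzadC and vehicle libraries alone (edgeR adjusted p = 0.0726), with the replicate number as a block (0.0813) and without any of 5 of the 6 libraries (0.0688 to 0.148 without AzadC 1, AzadC 2, AzadC 3, vehicle 2 or vehicle 3). Cav2, whose protein assembles with caveolin-1 and whose gene lies upstream on chromosome 6, had 6.23, 7.69 and 5.51 CPM with AzadC and 4.58, 4.31 and 4.48 CPM with vehicle. Its log2 change of 0.54 (SE 0.23) did not pass (edgeR adjusted p = 0.772). The AzadC effect on Cav1 exceeded that of the knockout by 1.10 (SE 0.16, edgeR adjusted p = 0.00194).

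Among genes of the DNA methylation machinery, which include the DNA methyltransferases that AzadC traps, none passed the threshold in AzadC against vehicle. These are RNA levels, and protein was not measured here. Dnmt1, the maintenance methyltransferase, had 408, 482 and 411 CPM with AzadC and 452, 451 and 448 CPM with vehicle. It had 286, 278 and 258 CPM in the untreated control and 201, 180 and 191 CPM in the knockout, so that both the AzadC and the vehicle libraries lay above the untreated wild type. The vehicle values lay within the AzadC range, and the log2 change was -0.05 (SE 0.07, 95% interval -0.21 to 0.10). The AzadC effect on Dnmt1 minus that of the knockout was 0.47 (SE 0.10, edgeR adjusted p = 0.0209). Since Dnmt1 is the gene knocked out there, the design set its fall, and this difference is not a result about AzadC. Dnmt3a and Dnmt3b, which set new methylation, had changes of 0.04 (SE 0.06) and -0.05 (SE 0.12). Uhrf1, which brings DNMT1 to half-methylated DNA, had -0.09 (SE 0.08), and Tet1, which oxidises methylcytosine, -0.07 (SE 0.09). Of 21 tested enzymes and partners, 1 was higher at an unadjusted p below 0.05 and 0 lower, beside 3.89% and 2.49% of all genes. That gene, Zbtb4, a zinc finger protein that binds methylated DNA, had a log2 change of 0.36 (edgeR adjusted p = 0.695) with overlapping libraries. All 21 intervals lay within a 2-fold change in either direction. Of 22 tested genes for uptake and metabolism of deoxycytidine analogues, 1 was higher and 0 lower at that level. Dck, the kinase that activates AzadC, had a log2 change of -0.17 (SE 0.11), and Slc29a1, a nucleoside carrier, 0.11 (SE 0.16).

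Germline genes known to be silenced by promoter methylation had few counts in the AzadC and vehicle libraries, and Meioc was the only one to pass. Of 73 genes on that list, 60 were tested, yet only 18 passed the filter on low counts when it was applied to the AzadC and vehicle libraries alone, the rest entering through the other groups. In these 6 libraries 19 of the 73 had no count at all. Summed over libraries, 35 had a higher pooled CPM with AzadC and 19 a lower one. Both numbers include genes with only 1 count in the 6 libraries: Tuba3b, Hormad1 and Asz1 in AzadC 2, Xlr3c in vehicle 2 and Majin in vehicle 3. The same split was not made over all genes. The summed level of the list was 92.5 to 117 CPM with AzadC, 111 to 117 CPM with vehicle and 95.5 to 123 CPM in the control, against 701 to 991 CPM in the knockout. The values overlap among the first 3 groups, but the vehicle sums include Meioc. It had 18.7, 27.8 and 25.2 CPM there against 1.26, 1.33 and 1.8 CPM with AzadC. Members already expressed, such as Syce2 (pooled 21.3 CPM with AzadC, 17.7 CPM with vehicle), also enter the sums, which therefore say little about silent members. At an unadjusted p below 0.05, 4 of the 60 tested were higher and 1 lower, beside 3.89% and 2.49% of all genes. Dazl, which binds RNA in developing germ cells, had 0, 6 and 3 counts with AzadC, 0, 0 and 2 with vehicle, 0, 0 and 0 in the control and 1477, 2443 and 1355 in the knockout. Stag3, a cohesin subunit of meiosis that was already expressed, had 208, 277 and 467 counts with AzadC and 189, 421 and 331 with vehicle, a log2 change of 0.33 after scaling (edgeR adjusted p = 0.716). Mov10l1, a helicase of the piRNA pathway, had 0 counts in the AzadC and in the vehicle libraries and 947 over those of the knockout. A count of 0 over the AzadC group allows up to 3 of its 59252010 counts, 0.0507 CPM, for counting error only.

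The difference between the AzadC and the knockout effect was itself tested, since these contrasts share no library. It passed for 381 genes with the AzadC effect above that of the knockout (2.20%) and for 382 below (2.20%). For the germline list no count of this test is given, since all but 18 of its 60 tested members entered only through the other groups, where they are high in the knockout, so that the filter set the sign of their difference. The genes with the lowest differences are such members and are given by their levels alone. Tex19.1, which restrains transposable elements in germ cells, had 0, 0 and 0.0668 CPM with AzadC, 0, 0.0964 and 0 CPM with vehicle, and 10.3, 15.5 and 11 CPM in the knockout. Xlr3c and Xlr4c, X-linked lymphocyte-regulated genes whose near-identical copies make single-gene counts uncertain, had 0 counts in every AzadC library. In the knockout Xlr3c had 560, 720 and 416 counts and Xlr4c 195, 209 and 98. The highest differences were those of Scin, which severs actin filaments (6.98, edgeR adjusted p = 0.0188), Aspn, a small proteoglycan of connective tissue (4.71, edgeR adjusted p = 0.0231), and Ltbp2, which binds to elastic microfibrils (4.40, edgeR adjusted p = 0.00258). For Scin the AzadC (0.788, 0 and 1.34 CPM) and vehicle libraries (0.247, 0.675 and 0.202 CPM) overlapped. Its level was 4.29, 14.3 and 2.57 CPM in the control and 0.228, 0 and 0.0593 CPM in the knockout. For Aspn the AzadC (3.07, 0.182 and 6.14 CPM) and vehicle libraries (0.186, 1.35 and 1.13 CPM) also overlapped. Its level was 19.8, 37.6 and 23.8 CPM in the control and 1.46, 3.74 and 5.51 CPM in the knockout. Ltbp2 had 7.09, 5.21 and 7.68 CPM with AzadC, 3.9, 3.86 and 4.84 CPM with vehicle, 20.1, 25.3 and 6.85 CPM in the control and 1.74, 0.443 and 1.78 CPM in the knockout. Control 3 lay within the range of the AzadC libraries, and the knockout libraries were below all others.

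Interferon-stimulated genes made up the group that stood furthest to one side. All 48 tested members had a log2 change above 0, with a median of 1.23 (quartiles 0.71 and 1.69), beside quartiles of -0.11 and 0.11 over all genes tested. At an unadjusted p below 0.05, 32 of the 48 were higher and 0 lower, beside 3.89% of all genes higher. The AzadC libraries lay above the vehicle libraries without overlap in 30, beside 6.10% of all genes. None passed the adjusted threshold in edgeR or limma-voom, while DESeq2 called 10 higher, beside 0.438% of all genes. The list was chosen with earlier results of these data known, so that its counts are a description.

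No member of the list passed, and those described next were separated between the groups. B2m, the light chain of MHC class I, had 83.9, 70.4 and 84.2 CPM with AzadC and 59.9, 54.3 and 55.3 CPM with vehicle. Its log2 change of 0.49 (SE 0.08) had the smallest unadjusted p of the list (5.15e-05, edgeR adjusted p = 0.0979). The libraries of the groups do not overlap, and the knockout lay higher still at 96.3 to 97.1 CPM. Oas1a, which senses double-stranded RNA, had 4.49, 4.85 and 4.84 CPM against 1.86, 0.386 and 0.444 CPM (2.49, SE 0.62, edgeR adjusted p = 0.343). Vehicle 1 was the highest of its group and still below every AzadC library. Of the effectors at the cell surface, Bst2, also called tetherin, which holds budding viruses at the cell surface, had 12.5, 11 and 13.8 CPM against 6.13, 2.51 and 2.38 CPM (1.80, SE 0.40, edgeR adjusted p = 0.22). Gbp2, a guanylate-binding protein that attacks intracellular pathogens, had 0.552, 1.88 and 1.14 CPM against 0.0619, 0.129 and 0.0807 CPM (3.58, SE 0.62, edgeR adjusted p = 0.0979). Ifi27 had 11.3, 3.21 and 15.2 CPM against 2.72, 2.57 and 2.14 CPM (2.02, SE 0.40, edgeR adjusted p = 0.136), with AzadC 2 close to the vehicle level.

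Some of the best known members overlapped between the groups. Isg15, a ubiquitin-like protein, had 5.28, 5.15 and 4.21 CPM with AzadC and 5.01, 0.257 and 0.686 CPM with vehicle (1.38, SE 0.83, edgeR adjusted p = 0.869). Rsad2, also called viperin, had 4.02, 5.27 and 4.41 CPM against 5.94, 1.48 and 1.86 CPM (0.60, SE 0.51, edgeR adjusted p = 0.923). In both, vehicle 1 lay within or above the AzadC range and the other vehicle libraries below it. The sensors Ddx58, also called RIG-I (0.73, SE 0.19, edgeR adjusted p = 0.366), and Ifih1, also called MDA5 (0.56, SE 0.26, edgeR adjusted p = 0.782), did not pass. For Ifih1 the AzadC effect exceeded that of the knockout (difference 1.54, edgeR adjusted p = 0.0359), and likewise for Ifi35 (1.64, edgeR adjusted p = 0.0474), the only members of the list whose difference passed in either direction. Of 21 interferon ligand genes in the files, 1 had any count in the AzadC libraries, 4 counts in all, and 3 had counts in the vehicle libraries, 5 in all.

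The level of the whole list shows the same split within the vehicle group. The mean log2 level of its tested members, set to 0 at the mean of the 6 libraries, was 0.60, 0.49 and 0.48 in the AzadC libraries and 0.07, -0.86 and -0.77 in vehicle 1, 2 and 3. The untreated control split in a similar way, at -0.10, -0.81 and -0.56, and the knockout libraries lay at -0.15, -0.11 and -0.21. All AzadC libraries were thus above the other nine, and the vehicle libraries differed among themselves by more than the AzadC libraries did. Without vehicle 1, edgeR called 16 genes higher and 6 members of the list passed, among them Oasl2, Irgm1, Ifi44, Bst2 and Ifi35. The median of the list was then 1.94, and without vehicle 2 or vehicle 3 it was 0.94 and 0.97. Ifi27 passed without AzadC 2 (2.44, edgeR adjusted p = 0.000204).

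**Figure D2:**
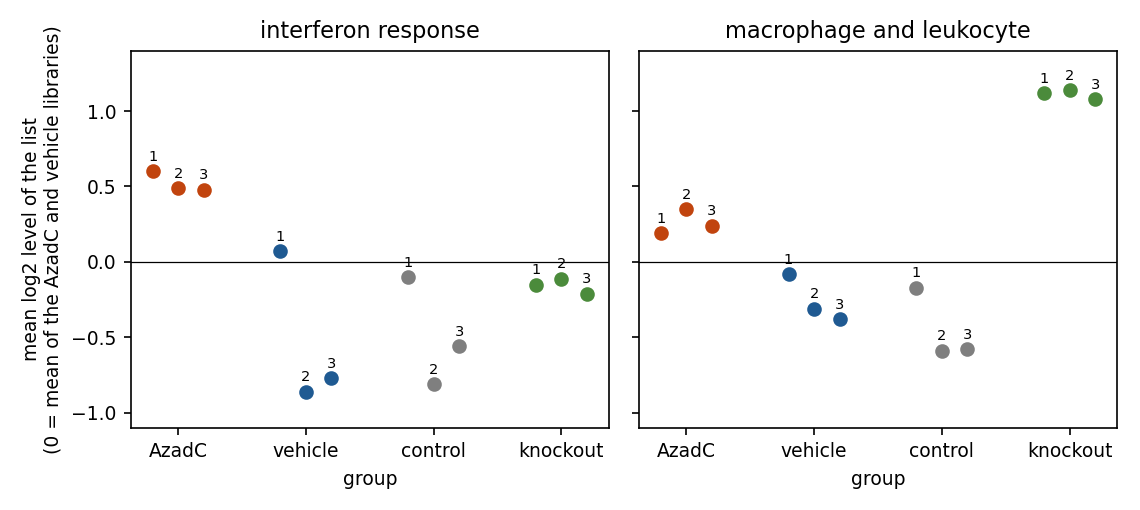
Mean log2 level of the tested members of the interferon response list and of the macrophage and leukocyte list (y axis, 0 at the mean of the AzadC and vehicle libraries) in each library (points, numbered by replicate) of the 4 groups (x axes). For the interferon list the AzadC libraries (0.48 to 0.60) lie above all others and vehicle 1 (0.07) above the other vehicle libraries; for the macrophage list the knockout is highest (1.08 to 1.14).

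Interferon-stimulated genes are switched on through a short element in their promoters. The motif GAAANNGAAA, in which N is any base, was searched on both strands of the 250 bases before each RefSeq start site. It was found in 15 of the 35 list members with a window (42.9%) and in 381 of 12162 tested genes with one (3.13%). Among genes higher at an unadjusted p below 0.05 it was found in 9.89%, and among those lower in 4.38%. The stretches around the match are printed for 5 members chosen among those that hold one, with matches in capitals. B2m, Gbp2, Oas1a and Bst2 were described above for their separation, and Isg15 overlapped. Whether the motif goes with separation between the groups was not tested.
B2m, chr2:122147523-122147582, plus strand: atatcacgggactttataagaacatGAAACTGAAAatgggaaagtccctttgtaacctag
Gbp2, chr3:142620579-142620638, plus strand: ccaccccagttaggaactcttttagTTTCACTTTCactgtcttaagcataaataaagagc
Oas1a, chr5:120907526-120907570, minus strand: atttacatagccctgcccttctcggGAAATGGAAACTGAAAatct
Bst2, chr8:71537568-71537627, minus strand: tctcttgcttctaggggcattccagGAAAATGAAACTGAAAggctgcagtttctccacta
Isg15, chr4:156200862-156200921, minus strand: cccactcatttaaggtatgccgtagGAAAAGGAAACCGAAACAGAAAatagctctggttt
Matches begin 139 bases before the start site in B2m, 59 in Gbp2, 20 in Oas1a, 130 in Bst2 and 78 in Isg15. A match is a property of the sequence, and no binding was measured.

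Genes of macrophages and other leukocytes were also shifted upward, by less. Of 41 tested members 39 had a log2 change above 0, beside 8430 of all 17335, with a median of 0.50. At an unadjusted p below 0.05, 22 were higher and 0 lower, beside 3.89% and 2.49% of all genes. The AzadC libraries were above vehicle without overlap in 22, beside 6.10% of all genes. None passed the adjusted threshold in edgeR or limma-voom, and DESeq2 called 10 higher, beside 0.438% of all genes. Their summed level was 731 to 806 CPM with AzadC, 574 to 590 CPM with vehicle, 529 to 583 CPM in the control and 1130 to 1250 CPM in the knockout. The groups do not overlap except for vehicle with control, and the knockout lay highest. In bulk tissue a larger number of cells of a type and more RNA per cell cannot be told apart.

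Fcgr3, a receptor for antibody constant regions, came closest of the list to the threshold. It had 10.1, 9.63 and 8.98 CPM with AzadC, 4.64, 3.44 and 4.03 CPM with vehicle and 12.5, 18.7 and 14.2 CPM in the knockout. The AzadC values were close together and above vehicle and below the knockout, and the log2 change was 1.25 (SE 0.19, edgeR adjusted p = 0.0666). Tyrobp, the signalling adaptor of several myeloid receptors, had 8.2, 6.6 and 7.75 CPM against 4.64, 3.53 and 3.47 CPM (0.96, SE 0.17, edgeR adjusted p = 0.114). Csf1r, the receptor that macrophages need to survive, had 33.4, 35.6 and 41.5 CPM against 31.7, 22.7 and 24.8 CPM, with vehicle 1 just under the lowest AzadC library (0.49, SE 0.13, edgeR adjusted p = 0.446). Siglec1, a sialic acid receptor of macrophages that interferon also raises, had 4.96, 3.03 and 3.47 CPM against 0.866, 0.418 and 0.121 CPM (3.10, SE 0.55, edgeR adjusted p = 0.114). It had the largest change on the list, 4.48, 4.77 and 3.56 CPM in the knockout, and a difference between the effects of -0.03 (SE 0.84). Coro1a, an actin-binding protein of leukocytes (-0.02, SE 0.19), and Pf4, a platelet and macrophage chemokine (-0.45, SE 0.44), were the members not above 0. Cd163, a scavenger receptor of mature macrophages, was not tested, with 0 counts in the AzadC and 2 in the vehicle libraries.

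Against the knockout, the AzadC effect on this list was lower. The difference passed for 18 members below and 1 above, beside 2.20% of all genes in each direction, with a median of -1.20. Of the 41 tested members, 39 passed the filter on low counts in the AzadC and vehicle libraries alone. The rest entered through the other groups, and for such members the filter may set the sign of the difference. Csf1r differed by -1.86 (edgeR adjusted p = 0.000131) and Adgre1, an adhesion receptor of mature macrophages, by -1.78 (edgeR adjusted p = 0.00164). The member above was Dab2 (0.62, edgeR adjusted p = 0.00921), an endocytic adaptor found at 192 to 320 CPM over the 12 libraries, which is also expressed outside leukocytes. The count of 18 below was 9 without AzadC 1, control 2 or knockout 2, 10 without AzadC 3, 11 without knockout 1 or vehicle 1, and 12 to 24 without each of the others. In the AzadC libraries the levels of both the interferon and the macrophage list were above vehicle, and the part of either in the other was not tested.

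**Figure D3:**
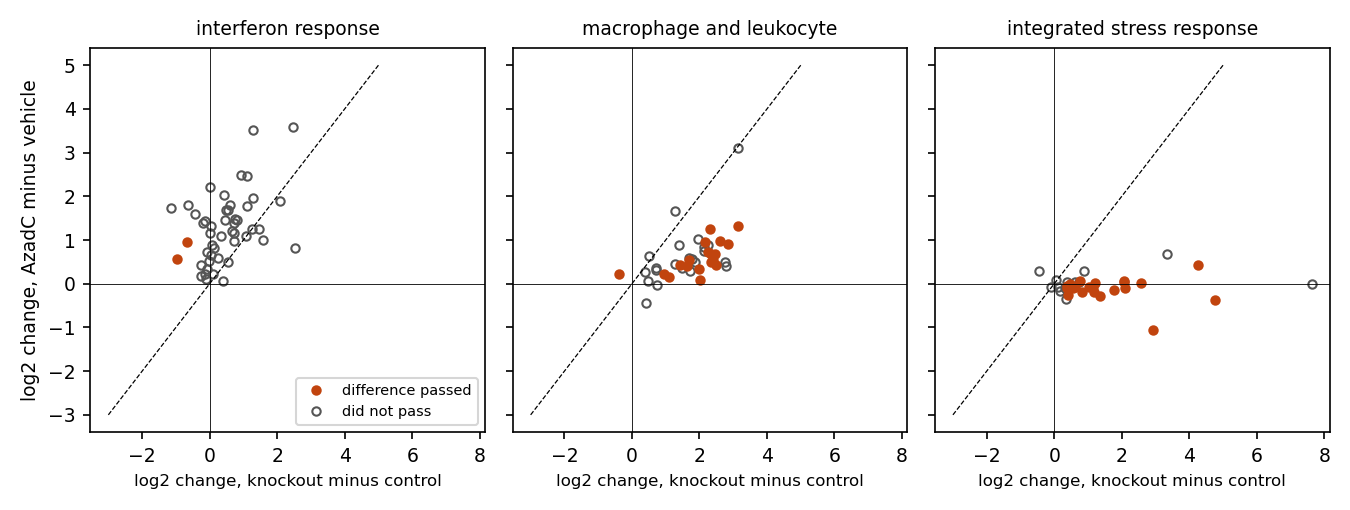
Log2 change of AzadC against vehicle (y axis) and of knockout against control (x axes) for each tested member (points) of 3 lists, filled where the difference between the effects passed, with the line of equal change dashed. Interferon response members lie mostly above the line (2 filled, both above it), macrophage and leukocyte members mostly below it (18 of 19 filled points), and integrated stress response members spread mostly along the x axis (21 filled, all below).

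Other genes near the threshold were named by the 30 smallest p-values, a rule added after the values were seen. Gpihbp1, which carries lipoprotein lipase across capillaries, had 1.67 to 2.18 CPM with AzadC, 0.363 to 0.557 CPM with vehicle and 1.38 to 1.67 CPM in the control (1.99, SE 0.36, edgeR adjusted p = 0.114). Tspan8, a tetraspanin, had 5.74 to 8.83 CPM, 2.96 to 3.79 CPM and 8.66 to 11.9 CPM in the same order (1.05, SE 0.21, edgeR adjusted p = 0.152). In both, the control was above AzadC or nearer to it than to vehicle, so that the vehicle group stood apart from the untreated wild type. In others all AzadC libraries lay above all vehicle and control libraries. Gvin1, a very large interferon-inducible GTPase, had 6.23, 7.03 and 5.34 CPM with AzadC, 0.681, 0.739 and 1.09 CPM with vehicle and 0.919 to 2.85 CPM in the control (2.87, SE 0.48, edgeR adjusted p = 0.0979). Lgals3, a galectin of macrophages and epithelia, had 1.34, 2.18 and 1.34 CPM with AzadC against 0.247, 0.225 and 0.0807 CPM (3.12, SE 0.51, edgeR adjusted p = 0.0979). Parp12, an antiviral ADP-ribosyltransferase, had 13.7, 11.8 and 13.8 CPM against 7.67, 4.47 and 5.08 CPM (1.21, SE 0.21, edgeR adjusted p = 0.0979), and Ifitm3, which blocks viral entry, 36.8, 30.5 and 37.4 CPM against 22.8, 19.6 and 17.1 CPM (0.82, SE 0.16, edgeR adjusted p = 0.136). The control libraries had 0.716, 0.268 and 0.228 CPM of Lgals3, 9.57, 6.78 and 7.53 CPM of Parp12 and 21.8, 13.8 and 18.4 CPM of Ifitm3. None of these 4 genes, Gvin1, Lgals3, Parp12 and Ifitm3, was on a list used here.

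**Figure D4:**
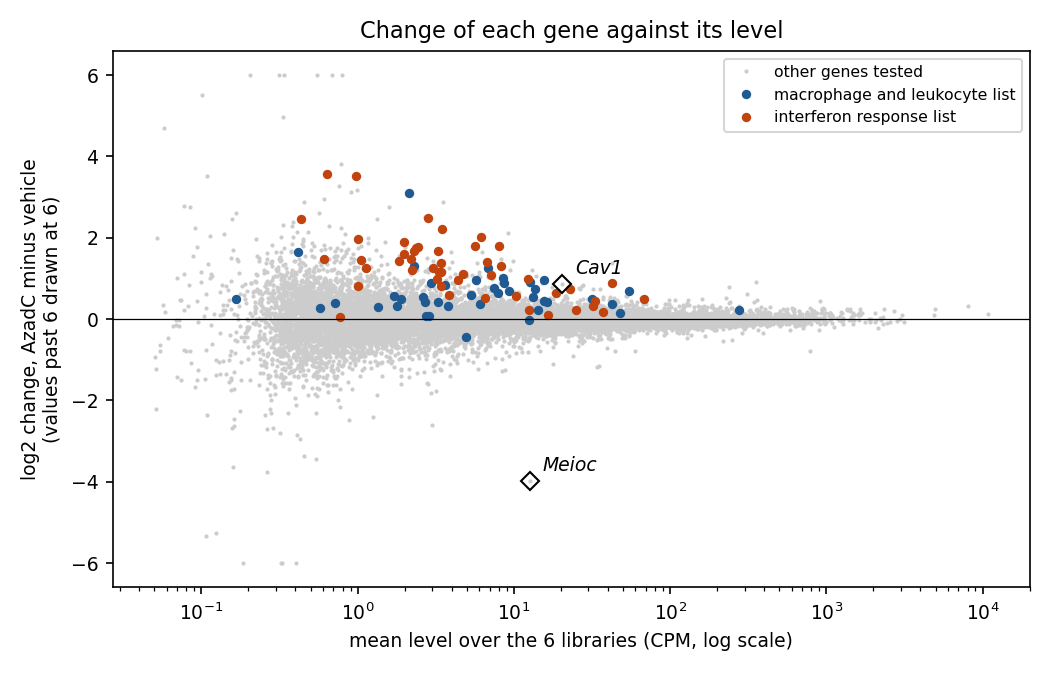
Log2 change of AzadC against vehicle (y axis, values past 6 in either direction drawn at 6) by mean CPM over the 6 libraries (x axis, log scale) for the tested genes, with the interferon response list, the macrophage and leukocyte list, Meioc and Cav1 marked. The 48 interferon members all lie above 0 and under 100 CPM, and Meioc lies at -3.99.

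Small shifts of abundant transcripts were measured with little error. Of 79 tested cytosolic ribosomal protein genes 70 had a log2 change above 0, beside 8430 of all 17335, and the median was 0.14. At an unadjusted p below 0.05, 39 of them were higher and 0 lower, beside 3.89% of all genes higher. Rpl17 had 878, 917 and 783 CPM with AzadC and 695, 712 and 714 CPM with vehicle (0.28, SE 0.06, edgeR adjusted p = 0.22), without overlap. DESeq2 called 9 of the ribosomal protein genes higher, beside 0.438% of all genes, and edgeR 0. Their summed level was 53500 to 57900 CPM with AzadC and 47700 to 52800 CPM with vehicle. It was 45500 to 48800 CPM in the control and 53100 to 54500 CPM in the knockout, which overlapped with AzadC. The AzadC effect minus the knockout effect had a median of -0.04 over these genes. Transcripts of the mitochondrial genome took 1.94% ± 0.0543 (SD, n = 3) of counts with AzadC and 1.66% ± 0.0575 (SD, n = 3) with vehicle (exact two-sided permutation p = 0.1, the smallest possible). The control libraries, at 1.79% to 2.04%, and the knockout libraries, at 1.87% to 2.1%, overlapped with AzadC, and the vehicle libraries, at 1.59% to 1.7%, were below all others. Of the 13 genes, 5 were higher at an unadjusted p below 0.05, beside 3.89% of all genes, among them mt-Co1, a subunit of cytochrome oxidase, with 9250, 8720 and 8940 CPM against 7380, 6630 and 7360 CPM (0.33, SE 0.06, edgeR adjusted p = 0.136). In the control mt-Co1 had 7420 to 8050 CPM, between the groups.

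Cell cycle genes gave narrow intervals around 0. Of 55 S-phase and 56 G2/M genes tested, 0 were higher or lower at an unadjusted p below 0.05 by edgeR, and by DESeq2 and edgeR 0 passed the adjusted threshold. All 55 and all 56 intervals lay within a 2-fold change. Mcm2, of the replicative helicase, had the smallest p of the first list, with 193, 217 and 205 CPM against 217, 229 and 222 CPM (-0.12, SE 0.07). Mki67, the proliferation antigen, had a log2 change of 0.01 (SE 0.09). Of 54 p53 targets 2 were higher and 0 lower at that level, beside 3.89% and 2.49% of all genes, and 46 intervals lay within a 2-fold change. Cdkn1a, the cell cycle inhibitor that p53 induces, had -0.11 (SE 0.38) with a wide interval of -0.93 to 0.70. Tnfrsf23, a decoy death receptor, had the smallest p among p53 targets (1.52, SE 0.44, 95% interval 0.57 to 2.47, edgeR adjusted p = 0.503). Of 49 DNA repair and replication stress genes 1 was higher and 2 were lower, beside 3.89% and 2.49% of all genes. All 49 intervals lay within a 2-fold change. Integrated stress response genes, 34 tested, had a median of -0.07, and for 21 of them the AzadC effect was below that of the knockout, beside 2.20% of all genes. Of these 34 genes, 31 passed the filter on low counts in the AzadC and vehicle libraries alone. The rest entered through the other groups, and for such members the filter may set the sign of the difference. Atf5, a transcription factor of that response, had 10.1, 12 and 12.3 CPM with AzadC, 12.1, 13.5 and 11.5 CPM with vehicle and 61.1, 56.2 and 37.9 CPM in the knockout (difference -2.20, edgeR adjusted p = 0.000268).

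Among 73 tested regulators of the palate, an unadjusted p below 0.05 was reached by 5 higher and 6 lower genes, beside 3.89% and 2.49% of all genes, and none passed the adjusted threshold in edgeR or DESeq2. Snai2, a repressor of epithelial character in neural crest and mesenchyme, had the smallest p, with 68.2, 62.6 and 62.2 CPM against 46.6, 49.6 and 58.4 CPM (0.32, SE 0.09, edgeR adjusted p = 0.503). Alx4, an aristaless homeobox factor of the frontonasal mesenchyme, had 34.6 to 36.2 CPM against 19 to 21.3 CPM (0.85, SE 0.25, edgeR adjusted p = 0.545), and it passed only in the fit of the 6 libraries alone and in the unfiltered fit. Of 34 osteogenic genes 7 were higher and 0 lower, beside the same shares of all genes, and their summed level overlapped between AzadC (5440 to 6640 CPM) and vehicle (4550 to 5780 CPM). Runx2, the master regulator of bone formation, had 73.5, 72.9 and 84 CPM with AzadC, 45.8, 55.2 and 59.8 CPM with vehicle and 84.1, 114 and 102 CPM in the control (0.52, SE 0.14, edgeR adjusted p = 0.421). The AzadC values lay above vehicle and below the control. Of 40 endothelial genes 33 were above 0, beside 8430 of all 17335, with a median of 0.21, and 5 were higher at an unadjusted p below 0.05, beside 3.89% of all genes. Flt1, a receptor for VEGF, had 48.4, 56.7 and 41.1 CPM against 33.5, 34.3 and 31.7 CPM (0.55, SE 0.12, edgeR adjusted p = 0.222), and Vegfa itself 131, 143 and 133 CPM against 107, 116 and 108 CPM (0.30, SE 0.06, edgeR adjusted p = 0.136). In the control Flt1 had 30.7, 32.6 and 33.6 CPM, overlapping with vehicle. Vegfa had 123, 127 and 126 CPM there, between the AzadC and vehicle groups. Of 58 imprinted genes 2 were higher and 0 lower, beside 3.89% and 2.49% of all genes. H19 (0.10, SE 0.12) and Igf2 (0.15, SE 0.11) did not pass. Of 47 myogenic genes 43 were below 0, beside 8905 of all 17335. Their median was -0.79 with 0 past an unadjusted p of 0.05, beside the spread in muscle level between libraries given above. Of the 47, 42 passed the filter on low counts in the AzadC and vehicle libraries alone. Below 0 were also 34 of 39 erythroid, 24 of 30 chondrogenic and 30 of 47 epithelial genes. At an unadjusted p below 0.05, 0, 1 and 2 of these lists' genes were lower and 0, 1 and 2 higher. The AzadC libraries lay below vehicle without overlap in 6, 7 and 10, beside 5.76% of all genes, and above in 0, 2 and 2, beside 6.10%. Of 36 neuronal genes 25 were below 0 and 11 above, with a median of -0.15 (quartiles -0.5 and 0.07). With an unadjusted p under 0.05, 3 of them fell and 0 rose, beside 2.49% and 3.89% of all genes. Their summed level overlapped between AzadC (278 to 309 CPM) and vehicle (303 to 321 CPM). Tubb3, a tubulin of neurons, was named for the smallest p of that list. It had 4.1, 5.33 and 5.98 CPM against 8.04, 12.1 and 9.92 CPM (-0.95, SE 0.25, edgeR adjusted p = 0.381).

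**Figure D5:**
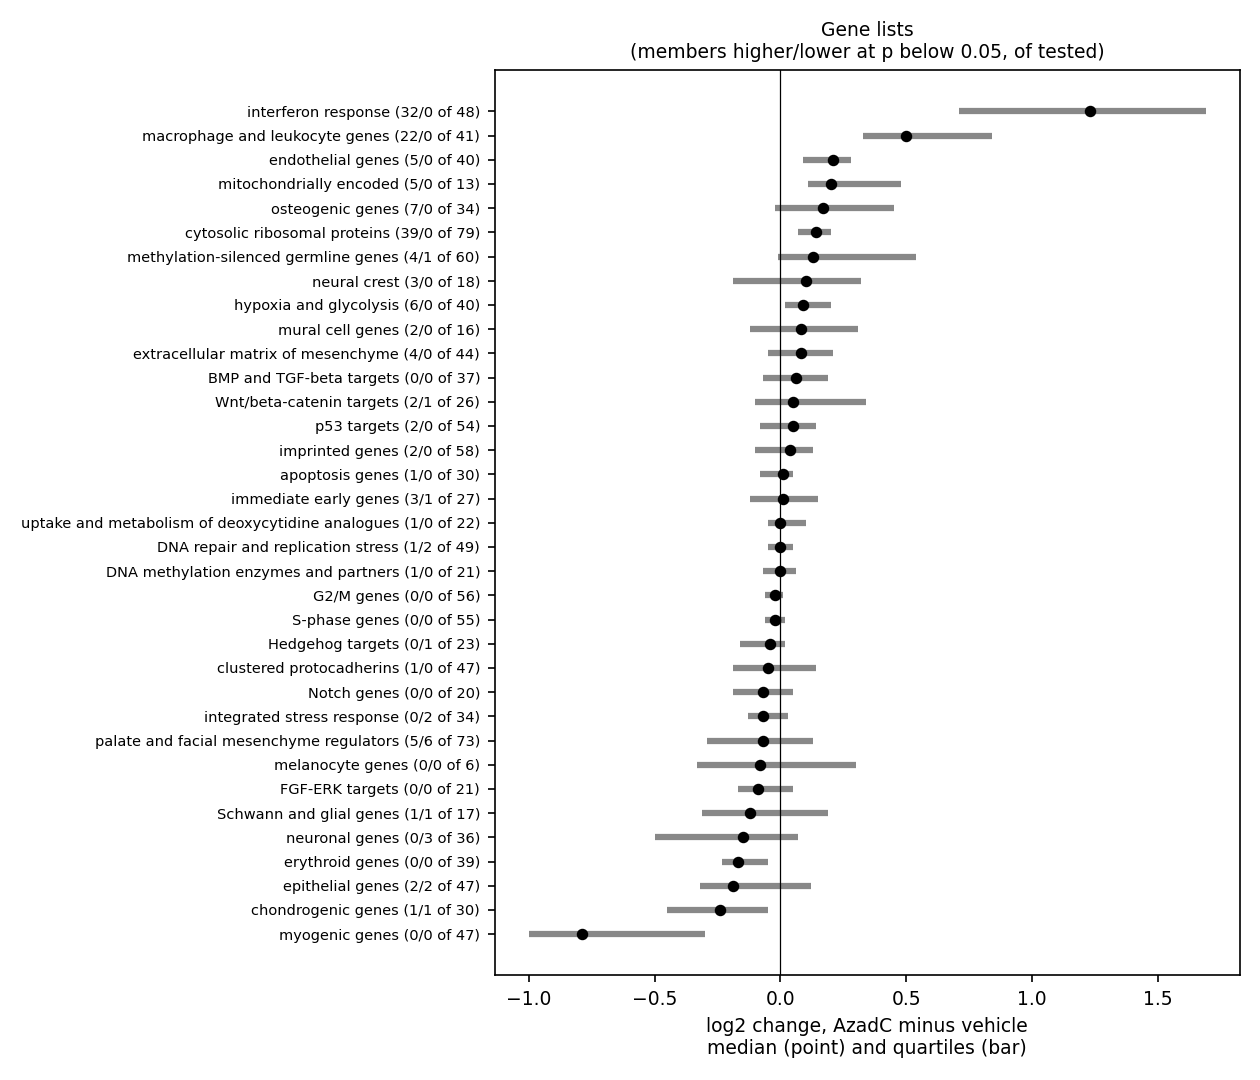
Median (points) and quartiles (bars) of the log2 change of AzadC against vehicle (x axis) over the tested members of each list (y axis), with the number tested in brackets beside how many had an unadjusted p under 0.05 in each direction; lists with 5 or fewer tested members and the Y-linked genes are left out. The interferon response list (median 1.23) lies furthest to the right and the myogenic list (-0.79) furthest to the left, and the cell cycle lists lie at -0.02.

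The size of change that could be seen depended on the level of a gene. For the 2539 genes over 100 CPM the median half-width of the 95% interval was 0.15 on the log2 scale, and 99.8% of intervals lay within a 2-fold change. For 7602 genes at 10 to 100 CPM the half-width was 0.22 and the share 98.3%. At 1 to 10 CPM, where most interferon members lie, they were 0.63 and 63.2%, and under 1 CPM, where most germline genes lie, 1.29 and 2.84%.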

How the data were processed

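RNA-seq of palatal shelves was deposited as 1 table per library. Per the file headers these hold expected counts per gene, and TPM, from RSEM; tools listed in the submitters' processing notes are STAR 2.7.0, RSEM 1.3.1, Trim Galore, DESeq2 and FastQC, with mm10 as the build. The TPM values deposited by the authors were only inspected for the methylation and nucleotide genes. RSEM shares reads between similar genes, so near-identical copies are uncertain one by one. Whether counting used strand is not stated in the labels or headers.

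Rounded expected counts were tested with edgeR 4.0.16 under R 4.3.3: filterByExpr by group (17335 of 56691 genes), TMM factors of 0.985 to 1.01, 1 mean per group over all 12 libraries, and the quasi-likelihood test with Benjamini-Hochberg adjusted p below 0.05. SEs are the absolute log2 change over the square root of F. The contrasts were AzadC against vehicle, and that effect minus knockout against control. Alternatives used DESeq2 1.42.0 and limma-voom (limma 3.58.1) among others. Scripts were tested on simulated data. Gene coordinates are from GENCODE M21.

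The 37 gene lists and the comparison itself were chosen with earlier results of these data known. Named were the methylation enzymes, the genes that passed (at most 12 per direction), up to 4 passing members per list or else the one with the smallest adjusted p, the 3 highest and lowest of the difference, and, added after the values were seen, the 30 smallest p-values. Further list members were chosen after their values were seen. Same-numbered AzadC and vehicle libraries correlated at 0.03, -0.138 and -0.077 in their deviations from the group means, so the numbers do not pair them. No libraries of a group agreed within sampling noise (chi-square per degree of freedom 6.92 to 14.8). Some genes that the rule names are not reported here.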

Additional observations from a re-analysis of the deposited data

How the results depend on the processing

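Counts of genes higher and lower with AzadC were 1 and 1. They stayed there with limma-voom, RLE or upper-quartile scaling and a mean above 1 CPM. DESeq2 gave 76 and 6, no filter on low counts 102 and 17 (66 of these 119 shared with DESeq2, 17 with a mean under 1 CPM), only the groups compared 2 higher, the Y-linked level as a covariate 5 and 2, and a test against a 1.2-fold change 0 higher. The fit with the replicate number as a block gave 0 higher, and it moved no other count past 1.5 times, the numbers not pairing the libraries. Without 1 library the counts ran from 0 to 16 higher and from 1 to 2 lower, the 16 without vehicle 1. For the difference from the knockout effect (381 above, 382 below), DESeq2 gave 704 and 755, no filter 734 and 704, and the 1.2-fold test 158 and 168, and without 1 library the counts ran from 160 to 457 above and from 168 to 439 below. Members of the interferon list higher at an unadjusted p below 0.05 numbered 27 to 44 without 1 library. Of 71 named genes under 1125 alternatives, 1032 kept direction and call, 8 lost a call (all Cav1), 75 gained one and 10 did not keep their sign, all 10 without a call. These were Dnmt1 0.01 with the Y-linked covariate, Dnmt3b 0.01 without AzadC 3 and 0.03 without vehicle 1 (-0.14 to 0.03 without 1 library), Scin -0.12 without AzadC 3 (-0.12 to 1.75), Tex19.1 0.17 in limma-voom and 0.06, 0.16 and 2.74 without AzadC 1, AzadC 2 or vehicle 2 (-3.01 to 2.74), Xlr3c 0 without vehicle 2 (-2.24 to 0) and Xlr4c 0 without vehicle 3 (-4.12 to 0). For Xlr3c and Xlr4c those fits held no AzadC or vehicle count of the gene, so that a change of 0 is not a reversal. The cause of the other shifts was not tested. Intervals were widest under 1 CPM (median half-width 1.29 on the log2 scale), and whether depth or the spread between pools sets this was not tested.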

Other observations

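Of the 76 genes that DESeq2 called higher, 47 were on neither the interferon, the macrophage nor the ribosomal list. Chosen after their values were seen, Lgals9, a galectin that interferon raises, had 16.5, 12.7 and 13.7 CPM with AzadC and 9.34, 3.37 and 3.71 CPM with vehicle (log2 change 1.42, SE 0.31, edgeR adjusted p = 0.219). Rnf213, which DESeq2 did not call (adjusted p = 0.0985) but edgeR did without vehicle 1, a giant ubiquitin ligase with antimicrobial roles, had 74.2, 57.8 and 51.9 CPM against 40.8, 14.7 and 15.9 CPM (1.39, SE 0.32, edgeR adjusted p = 0.261). In both, vehicle 1 was the highest of its group, as for the interferon list. Among genes lower with AzadC by DESeq2 but not by edgeR was Scube1, a secreted cell surface protein, with 16.5, 13.6 and 19.2 CPM against 38.7, 36.5 and 18.4 CPM. Its vehicle 3 value lay within the AzadC range, and the log2 change was -0.91 (SE 0.22, edgeR adjusted p = 0.326). The control libraries, at 35.8 to 36.8 CPM, lay with the other vehicle libraries. Without vehicle 3 Scube1 passed in edgeR (-1.18, adjusted p = 0.0226).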
